A study of Homo sapiens with 26 samples.

Results

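The response to arsenite was described in HCT116 cells that expressed the RQ mutant of IGF2BP1 and carried knockouts of its paralogs IGF2BP2 and IGF2BP3. The samples were taken by their titles, as the 3 RNA-seq libraries labelled mCherry-IGF2BP1 RQ with arsenite and the 3 with the same label as control, which are 6 of the 26 RNA-seq samples. HCT116 is a human colorectal carcinoma line, and RQ stands for the substitutions R167Q, R168Q, R174Q and R178Q, which replace arginines in the first disordered linker of the protein by glutamine. Both RQ groups also carried the Tet-OsTIR1-PURO construct, and the labels list no knockout of the cells' own IGF2BP1. The RQ control group received PBS, and the RQ arsenite group received 500 µM sodium arsenite for 2 h. The WT groups used for comparison had the same background, treatment and time, with mCherry-IGF2BP1 of unchanged sequence. Control and arsenite libraries of cells with mCherry-IGF2BP1 S181E or Y396E shared the fit. They entered the level filter, the scaling and the estimate of spread, and their own responses are not described. The tagged protein came from a lentivirus with a human PGK promoter, and the cells used for sequencing were a population sorted by flow cytometry through a narrow gate. Each genotype is 1 such line, so effects of the genotype and of the line cannot be told apart. RNA was taken from the clarified lysate that also served as input of an immunoprecipitation, so material pelleted from the lysate was not sequenced. Poly(A) RNA was then selected, and replicates were dishes plated independently.

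IGF2BP1 is an RNA-binding protein that holds target mRNAs in cytoplasmic granules and protects many of them from decay. Its disordered linkers lie between the folded RNA-binding domains, and the first linker has an arginine- and glycine-rich stretch that touches RNA weakly. Arsenite binds protein thiols, damages proteins and raises oxidants. Cells answer by phosphorylating eIF2α, which slows most translation and favours that of ATF4, by releasing the heat shock factor HSF1 and the antioxidant factor NRF2, and by signalling through stress-activated MAP kinases to the AP-1 and EGR genes.

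Total counts of the 6 libraries lay between 22868636 and 37902346. On the log2 scale, libraries of the same RQ group correlated across tested genes at a Pearson's r of 0.9955 to 0.9976 and control with arsenite libraries at 0.85 to 0.871, where genes do not count as replicates. Levels are given as CPM, counts relative to the library total after TMM scaling, which sets a trimmed mean change between libraries to 0. They compare 1 gene between samples, not genes with each other. A gene was called when its Benjamini-Hochberg adjusted p in edgeR's quasi-likelihood test was under 0.05 and its fold change above 1.2. The epithelial markers KRT8, KRT18, KRT19, EPCAM and CDH1 were well expressed, while CDH17, VIL1 and LGALS4, which mark differentiated intestinal cells, were at or near 0. The 8 epithelial markers summed to 2665 to 2987 CPM in control and 4225 to 4367 CPM in arsenite libraries. Markers of fibroblasts summed to at most 10.8 CPM, nearly all of it COL1A1, those of endothelium to at most 0.693 and those of immune cells to at most 0.107, with COL1A2, COL3A1, DCN, LUM and PTPRC at 0 in all 6 libraries. In such bulk samples, fewer cells of a kind and less RNA per cell cannot be told apart.

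Counts of IGF2BP1 join the transgene and any transcript of the cells' own gene. The study states that HCT116 cells lack expression of IGF2BP1, which was not examined here. IGF2BP1 (ENSG00000159217.10, chromosome 17, 48997385 to 49056145 in hg38) was at 15.3, 12.2 and 15.6 CPM in the RQ control libraries and at 47.2, 46.2 and 47.9 CPM in the RQ arsenite libraries. The groups did not overlap, and the RNA was 3.27-fold higher in arsenite. Its log2 change was 1.71 ± 0.10 (SE from the fit, n = 3 per group, edgeR's adjusted p of 4.95e-14). Transcripts of the knocked-out paralogs were still counted and were not called, with log2 changes of -0.04 ± 0.05 for IGF2BP2 and -0.09 ± 0.05 for IGF2BP3. Counts per gene show neither a frameshift nor the linker substitutions, so these values test neither the knockouts nor the RQ allele.

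Arsenite changed the level of most mRNAs in RQ cells. Of 9099 protein-coding genes tested, 6631 were called (72.9%), 3378 of them higher (37.1%) and 3253 lower (35.8%), and for 7843 genes (86.2%) the 3 control and 3 arsenite libraries did not overlap. Counts in the gene lists below stand beside the 37.1% higher and 35.8% lower of all genes. Most changes were small. More than 2-fold higher were 1135 genes (12.5%) and more than 2-fold lower 437 (4.8%). Above 8-fold the numbers were 18 and 5, and above 32-fold 6 and 0. Scaled by library totals alone, the median change of all genes moved from -0.01 to 0.16. Rises then made up 62.0% of the calls, 4071 of 6562, in place of 50.9%. In WT cells 72.2% of the genes were called.

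The largest rises were those of immediate-early genes, whose transcription needs no new protein. FOS (chromosome 14, 75278826 to 75282230 in hg38), an AP-1 subunit, was at 5.58, 3.41 and 4.42 CPM in control and at 1073, 1116 and 1099 CPM in arsenite libraries. FOSB, a close relative, went from 20.6, 13.4 and 22.7 CPM to 1882, 1854 and 1875. JUN, the usual partner of FOS, went from 42.1, 37.96 and 46.4 CPM to 1489, 1401 and 1403. All arsenite libraries lay far above all controls for these 3 genes, which were 242-fold, 98.3-fold and 33.9-fold higher. JUNB and ATF3 followed with log2 changes of 2.96 ± 0.07 and 4.04 ± 0.09. The AP-1 group did not rise as a whole. Of its 8 genes, 5 were called higher and 2 lower, and the median was 3.5 against -0.01 for all tested genes. The subunits FOSL1 and FOSL2, which form other AP-1 dimers, had log2 changes of -1.10 and -1.52, FOSL1 from 864 ± 19.6 to 401.8 ± 14.2 CPM (SD, n = 3). JUND was not called, at 0.16.

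The EGR genes, zinc finger factors induced by growth and stress signals, rose in parallel. EGR2 was at 1.92, 1.49 and 3.03 CPM in control and at 314.5, 260 and 262.4 CPM in arsenite libraries. EGR1 went from 82.0, 70.9 and 79.5 CPM to 2596, 2299 and 2608 CPM. Both separated the groups fully, with 128-fold and 32.3-fold higher levels. Of the 17 tested genes on a list of other immediate-early factors, 12 were called higher and 4 lower, with a median of 1.37. EGR3 (3.54), NR4A2 (2.99), NR4A1 (2.43), ARC (2.41) and IER2 (2.38) stood among the rises. The 4 that fell were SRF (-1.36), IER3 (-1.24), MYC (-1.03) and MAFF (-0.68), and KLF6 was not called. SRF is the factor that drives many immediate-early promoters, and MYC, a growth regulator and known IGF2BP1 target, went from 547.9 ± 30.0 to 268.5 ± 4.05 CPM.

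The promoter of EGR1 is shown because EGR1 is a classical target of SRF and was among the largest rises. CArG boxes, to which SRF binds, were searched on both strands in RefSeq promoter windows (GRCh38.p14, 250 bases before to 50 after the start), which matched 7508 of the 9099 tested genes. EGR1 had 2, in capitals, starting 105 and 83 bases before the start, in chr5:138465354-138465425 on the plus strand.
EGR1: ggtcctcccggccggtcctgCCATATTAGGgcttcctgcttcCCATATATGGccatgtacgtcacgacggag
A CArG box was present in 1.01% of the windows of all tested genes and in 0.95% of those of the 105 genes that were more than 4-fold higher and had a window. SRF itself, which fell, had 2 in its window as well.

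**Figure D1:**
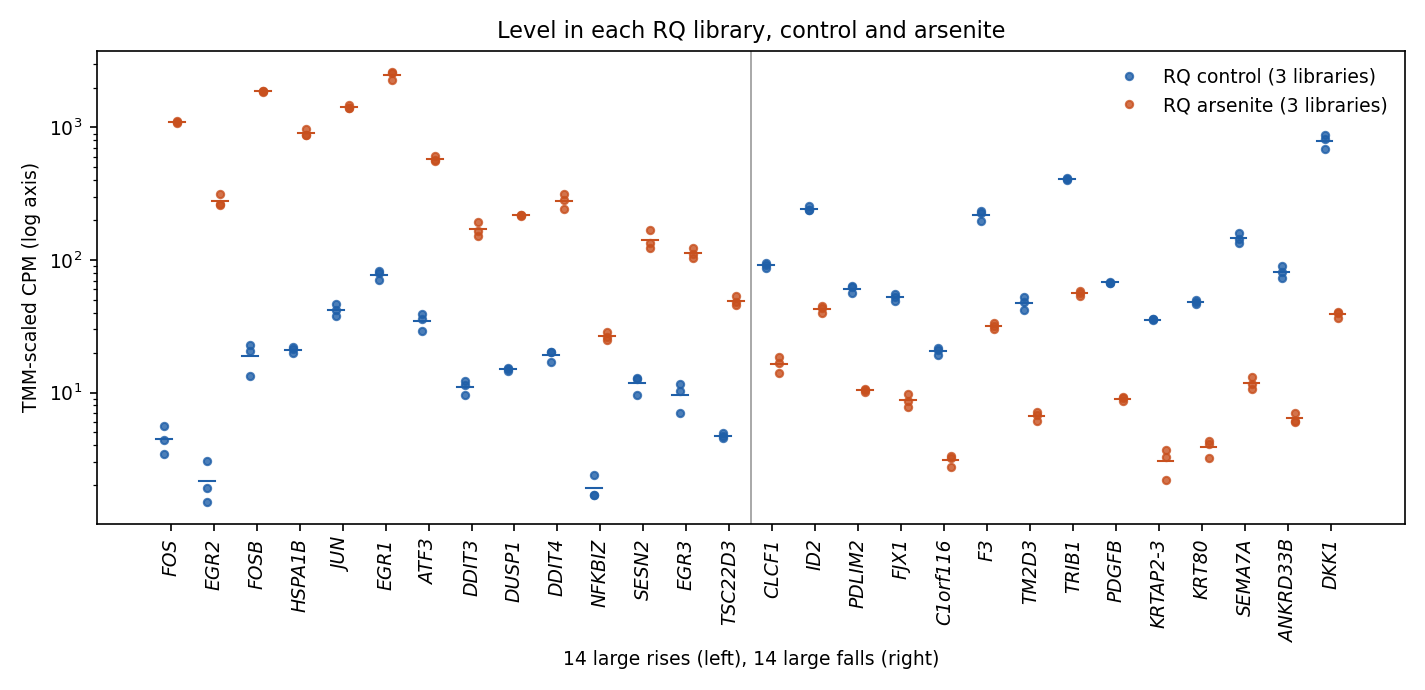
Levels in RQ cells of 14 of the genes that rose most and 14 of those that fell most, as TMM-scaled CPM on a log axis; points are single libraries, blue for control and orange for arsenite, and short lines are means of 3. FOS rose from a mean of 4.47 to 1096 CPM and DKK1 fell from 792.5 to 38.9 CPM, and no gene shown has overlapping groups.

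Feedback genes of the MAP kinases split by member. DUSP1 and DUSP2, nuclear phosphatases that switch off p38, JNK and ERK, rose by 3.87 ± 0.06 and 2.68 ± 0.07 on the log2 scale, and DUSP1 went from 14.9 ± 0.391 to 218.3 ± 2.64 CPM. DUSP6, the cytoplasmic ERK phosphatase, rose by 0.68. Of 11 feedback genes tested, 3 were called higher and 6 lower, among the latter SPRED1 (-1.11), DUSP8 (-1.09), SPRED2 (-1.01) and DUSP14 (-0.79). DUSP5 and DUSP16 were not called.

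Cytosolic chaperones were the other large group of rises. All 8 tested genes of the HSP70 and HSP110 family were called higher, with a median of 1.90, where 37.1% of all genes were higher. HSPA1B (chromosome 6, 31827738 to 31830254), the inducible HSP70, went from 21.3, 22.03 and 19.8 CPM to 979.5, 872.1 and 877.7 CPM, 43.3-fold higher. Its neighbour HSPA1A is nearly identical, so the split of reads between them is uncertain, and both rose, HSPA1A by 5.37 ± 0.25. HSPA6, a strictly inducible HSP70, had 0 counts in the 3 control libraries and 23, 33 and 48 in arsenite, which is at least 33.2-fold higher against a floor of 3 counts over the group. The constitutive HSPA8 rose from 609.2 ± 44.7 to 2519 ± 137 CPM and HSPH1, which reloads HSP70 with ATP, from 77.7 ± 2.30 to 608.1 ± 48.8 CPM. The smallest change was that of HSPA13, at 0.29 ± 0.11, and it was no longer called without RQ control replicate 2 (0.25), RQ arsenite replicate 2 (0.25), RQ control replicate 3 (0.20) or RQ arsenite replicate 3 (0.23).

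Co-chaperones and the HSP90 machinery rose as well. Of 17 co-chaperones, 13 were called higher (76.5%, against 37.1% of all genes) and 1 lower, with a median of 0.98. BAG3, which links HSP70 to autophagy, went from 57.6, 57.4 and 52.99 CPM to 551.4, 504.6 and 488.3 CPM, a log2 change of 3.20 ± 0.06. DNAJB1, an HSP40 that hands clients to HSP70, went from 317.7, 326.8 and 332.8 CPM to 2098, 1886 and 1883 CPM. The arsenite values of HSPA1B, BAG3 and DNAJB1 were all highest in replicate 1. BAG1, a nucleotide exchange factor, was the 1 gene called lower (-0.76), and HSPBP1, DNAJB6 and DNAJB2 were not called. Of 14 genes for HSP90, the chaperonin and small heat shock proteins, 12 were called higher, with HSP90AB1 at 2.60 ± 0.08 and HSP90AA1 at 2.06 ± 0.07. The mitochondrial chaperonin pair moved apart, since HSPD1 rose by 1.51 ± 0.06 while HSPE1, its small partner, which shares a promoter region with it, fell by 0.35 ± 0.12 and lost the call with library totals only (-0.19). HSPB1, a small heat shock protein, was not called, at -0.03 ± 0.05.

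Heat shock elements are shown because chaperone genes are the classical targets of HSF1. A heat shock element, here GAA, TTC and GAA with 2 free bases between neighbours, was searched on both strands in the same windows. It was present in 1 of 7 windows of the HSP70 list and 3 of 15 of the co-chaperones. The HSP90 list had it in 1 of 13. The share was 0.28% of all tested genes, 0.32% of those called higher and 0.19% of those called lower. Among genes more than 4-fold higher, 2 of 105 windows had it (1.9%). Matches in capitals lie upstream of HSPA8 (chr11:123062159-123062386, minus strand), CHORDC1 (chr11:90223067-90223129, minus strand), a zinc-binding HSP90 co-chaperone that had 3 overlapping matches, and SERPINH1 (chr11:75562157-75562209, plus strand), the collagen chaperone of the ER.
HSPA8: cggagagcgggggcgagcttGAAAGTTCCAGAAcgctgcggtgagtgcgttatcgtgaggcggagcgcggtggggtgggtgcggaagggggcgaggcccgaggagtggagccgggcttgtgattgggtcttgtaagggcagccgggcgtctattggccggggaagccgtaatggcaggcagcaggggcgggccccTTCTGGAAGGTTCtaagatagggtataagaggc
CHORDC1: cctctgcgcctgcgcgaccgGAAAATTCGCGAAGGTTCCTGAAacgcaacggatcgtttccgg
SERPINH1: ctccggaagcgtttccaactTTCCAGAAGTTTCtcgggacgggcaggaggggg
These 3 genes rose by 2.05, 1.83 and 0.82 on the log2 scale, but only listed genes called higher were printed. DNAJA1, which rose by 2.36, had a match starting 3 bases after the start. HSPA1B, BAG3 and DNAJB1 had no match in the window.

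Ubiquitin and autophagy genes followed the chaperones. UBB, a polyubiquitin gene, rose from 1014 ± 54.7 to 1904 ± 49.4 CPM. SQSTM1, the autophagy receptor p62, rose by 0.74 ± 0.05. Of 9 genes on this list, 7 were called higher and 1 lower, WIPI1 at -0.77. Proteasome genes moved less evenly. Of 41 tested, 18 were called higher (43.9%, against 37.1% of all genes) and 4 lower (9.8%, against 35.8%). The median was 0.14, and PSMD1, a large subunit of the regulatory particle, had the largest rise at 2.07 ± 0.06. The assembly factors PSMG4 (-1.04), PSMG3 (-0.94) and POMP (-0.49) and the subunit PSMD9 (-0.41) were lower, the last not with library totals only (-0.24).

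Several mRNAs for regulators of the integrated stress response, the branch downstream of eIF2α, rose. Phosphorylation of eIF2α was not measured in these libraries. DDIT3, which encodes the factor CHOP, was at 11.5, 9.59 and 12.2 CPM in control and at 152, 166.1 and 193 CPM in arsenite libraries. DDIT4, an inhibitor of mTORC1, went from 20.4, 20.3 and 16.9 CPM to 241, 282 and 314.8 CPM. SESN2, a leucine sensor that also holds back mTORC1, went from 12.8, 9.63 and 12.8 CPM to 122.2, 134.2 and 167.6 CPM. All 3 were separated between the groups, at 15.3-fold, 14.6-fold and 12-fold, and in each the highest arsenite value was that of replicate 3. CHAC1, a glutathione-degrading enzyme of low control level, rose from 2.50 ± 0.573 to 73.8 ± 8.75 CPM in the fit of all gene types. PPP1R15A, whose product lets eIF2α be dephosphorylated, rose by 2.13 ± 0.05, CEBPB by 1.47 ± 0.07 and TRIB3 by 1.22 ± 0.12.

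ATF4 mRNA itself was not called, at 783, 813.4 and 827.3 CPM in control and 826.6, 861.3 and 915.8 CPM in arsenite libraries. These ranges touch, and the change was 0.10 ± 0.04. ATF5, a related factor, and EIF4EBP1, a translational repressor, were called lower, at -1.01 ± 0.08 and -0.73. Of 13 regulators tested, 7 were called higher (53.8%) and 2 lower (15.4%), with a median of 0.53. Of all tested genes 37.1% were higher and 35.8% lower. CEBPG, STC2 and GPT2 were not called.

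Enzymes that supply amino acids and charge tRNAs rose. All 20 cytosolic aminoacyl-tRNA synthetases were called higher, where 37.1% of all genes were. Their changes ran from 0.49 for KARS1 to 2.42 for AARS1, with a median of 1.13. AARS1 went from 65.0, 50.4 and 64.0 CPM to 288.8, 310.5 and 361 CPM, and EPRS1, the bifunctional enzyme for glutamate and proline, from 52.3 ± 2.67 to 274.3 ± 8.56 CPM. Of 10 genes for serine, one-carbon, proline and asparagine synthesis, 7 were called higher and none lower, CTH (2.19 ± 0.14) and PHGDH (1.39 ± 0.10) most, while PYCR1, PSPH and MTHFD2 were not called. Asparagine synthetase, ASNS, below the level filter, rose from 1.14 ± 0.135 to 5.24 ± 0.75 CPM. Amino acid transporters split. SLC38A2 (0.97), SLC1A5 (0.91) and SLC3A2 (0.68) were higher, whereas SLC7A5 (-1.04), SLC38A1 (-0.77), SLC7A1 (-0.62) and the cystine transporter SLC7A11 (-0.46) were lower, although SLC3A2 and SLC7A5 encode the subunits of 1 heterodimer.

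A short element bound by C/EBP and ATF proteins is shown because it is the known site of ATF4 in amino acid response genes. The letters TGATGNAA were present on either strand in 6 of 16 windows of the synthetases, AARS1, TARS1, CARS1, MARS1, NARS1 and IARS1. The share was 1.45% of all tested genes, 1.62% of those called higher and 1.7% of those called lower. Among genes more than 4-fold higher, 7 of 105 windows had these letters (6.67%). The matches that lie upstream of the start, in AARS1 (chr16:70289666-70289713, minus strand) and IARS1 (chr9:92293698-92293730, minus strand), are given with those of ATF3 (chr1:212565196-212565243, plus strand) and MTHFD1L (chr6:150866337-150866384, plus strand), a mitochondrial one-carbon enzyme.
AARS1: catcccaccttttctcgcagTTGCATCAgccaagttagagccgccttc
IARS1: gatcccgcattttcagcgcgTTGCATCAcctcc
ATF3: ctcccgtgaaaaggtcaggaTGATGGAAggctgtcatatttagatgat
MTHFD1L: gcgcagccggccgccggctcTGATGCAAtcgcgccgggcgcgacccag
DDIT3, DDIT4 and SESN2 had no match to these letters in their windows. A match is a description of the letters and was not tied to binding. A single window per gene was searched. That of ATF3 lies at the outer end of the gene, which spans 212565334 to 212620775, and any other start was not searched.

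NRF2 targets, which detoxify oxidants, moved in both directions. Of 19 tested, 10 were called higher (52.6%) and 5 lower (26.3%), against 37.1% and 35.8% of all genes. The median was 0.27. The pentose phosphate enzymes PGD, which regenerates NADPH, and TKT rose by 1.27 and 1.25. HMOX1, the haem oxygenase, was at 21.7, 18.7 and 19.7 CPM in control and 42.3, 38.3 and 41.1 CPM in arsenite, a rise of 1.02 ± 0.11. The ferritin chains FTH1 and FTL (-0.99 and -0.89), the heme transporter SLC48A1 (-0.80) and the thioredoxin pair TXN and TXNRD1 (-0.70 each) were lower. PRDX1, GCLM, GSR and ABCC2 were not called.

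Of 10 listed genes for metallothioneins and the zinc exporter, 4 passed the level filter, MT1X, MT2A, MT1E and SLC30A1. The tested metallothioneins, small metal-binding proteins that arsenite is known to induce, did not rise together. Members of lower level are not covered. MT1X went from 31.1, 39.2 and 29.0 CPM to 82.4, 90.4 and 97.9 CPM, a separated rise of 1.45 ± 0.11. MT2A was lower by 0.35, from 1227 ± 112 to 959.6 ± 30.3 CPM, and MT1E was lower by 0.40. With library totals only both calls were lost, at -0.19 and -0.23. The zinc exporter SLC30A1, a target of the same metal-sensing factor, fell from 134.3 ± 8.75 to 84.3 ± 7.76 CPM.

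Genes of the endoplasmic reticulum stayed near the middle. Of 20 tested, 6 were called higher and 9 lower, with a median of 0.02, and with library totals only 9 were higher and 5 lower. HERPUD1, which takes part in ER-associated degradation, rose most, from 40.5 ± 1.85 to 202.1 ± 17.4 CPM. XBP1, whose RNA the study used as an IGF2BP1 ligand, was 2.00-fold higher, and HSPA5, the ER HSP70, rose by 0.71 ± 0.09. SELENOS (-0.85), SDF2L1 (-0.84) and MANF (-0.65) were lower. Of 24 genes of cholesterol synthesis, 13 were called higher (54.2%) and 6 lower (25.0%), and with library totals only 15 and 3. HMGCS1 (1.36), an early enzyme of the pathway, was higher and INSIG1 (-0.75), which restrains it, was lower.

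**Figure D2:**
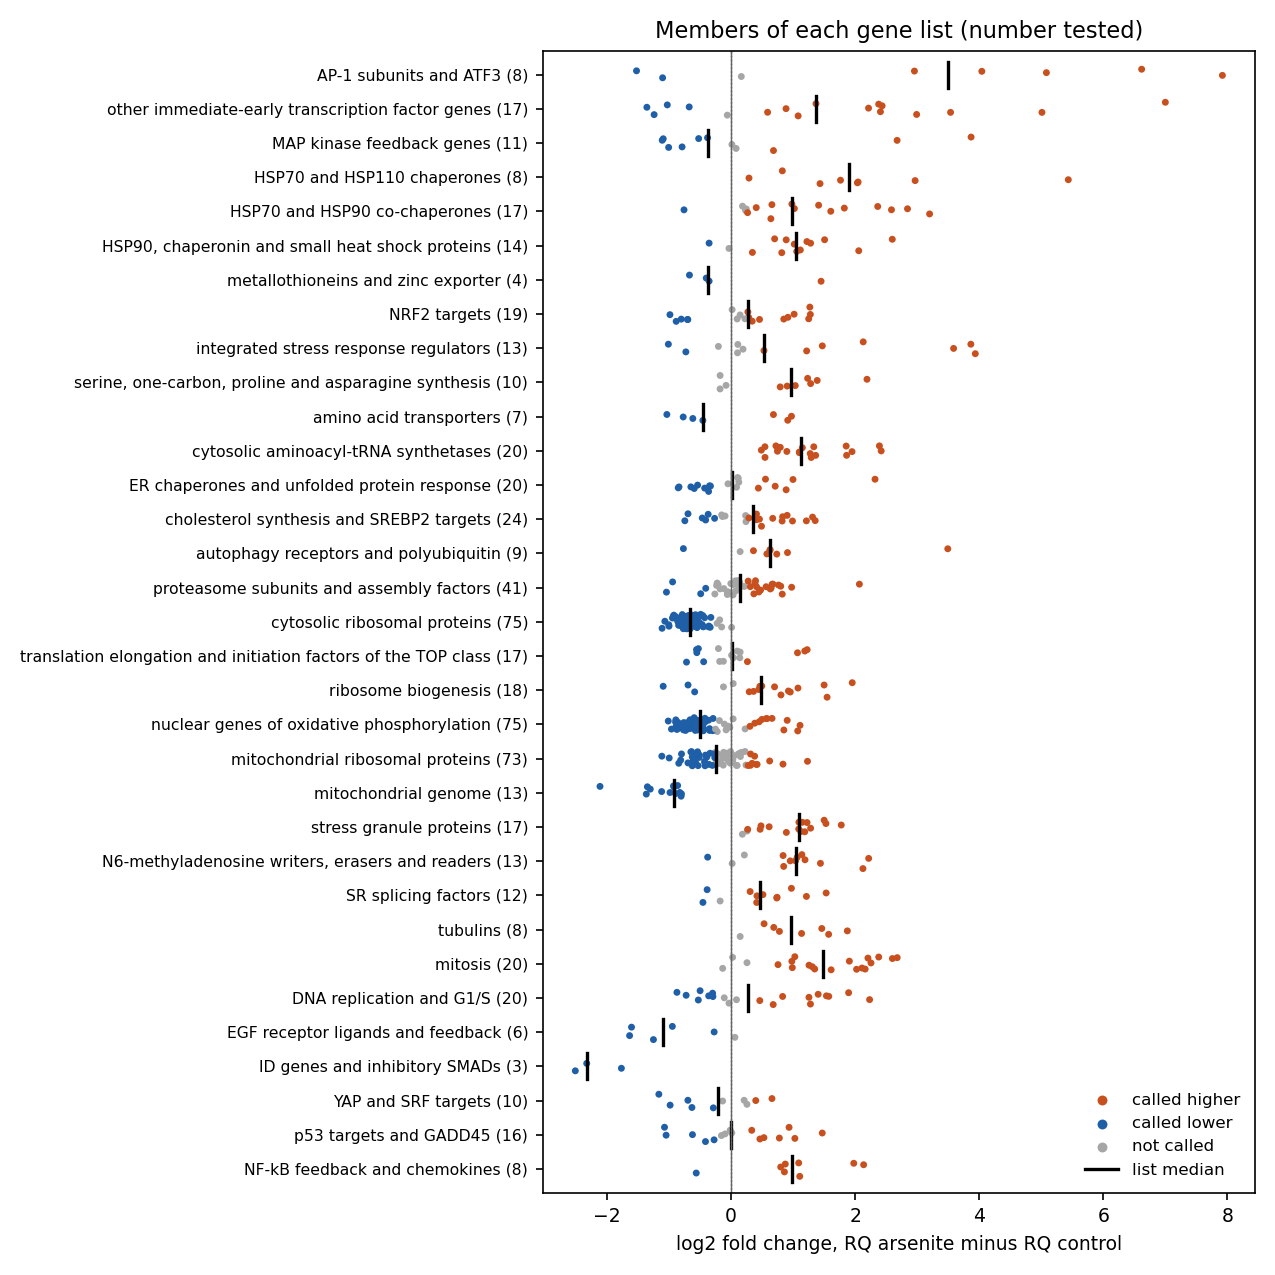
Log2 fold change of RQ arsenite minus RQ control for the tested members of 33 gene lists; each point is a gene, orange if called higher, blue if called lower and grey if not called, and black bars are list medians. The AP-1 list has a median of 3.5, the synthetases 1.13 and the ribosomal proteins -0.66, beside -0.01 for all 9099 genes (dotted line).

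DKK1 had the largest fall among the tested genes. DKK1 (chromosome 10, 52314281 to 52317657), a secreted Wnt antagonist, was at 811.4, 874.4 and 691.7 CPM in control and at 40.7, 39.99 and 36.2 CPM in arsenite libraries. It was 20.4-fold lower, the groups did not overlap, and edgeR's adjusted p was 6.12e-22. SEMA7A, a membrane semaphorin, went from 159.1, 144.4 and 135.3 CPM to 13.2, 11.5 and 10.7 CPM. PDGFB, a growth factor, went from 67.5, 67.1 and 68.4 CPM to 8.70, 9.03 and 9.32 CPM. F3, tissue factor, had a log2 change of -2.78 ± 0.09, and CLCF1, a cytokine, of -2.48 ± 0.08. KRT80 and KRTAP2-3, which encode a keratin and a keratin-associated protein, were 12.3-fold and 11.4-fold lower, and ANKRD33B, of unclear function, was 12.8-fold lower. TRIB1, a pseudokinase that directs C/EBP proteins to degradation, fell from 409.5 ± 7.65 to 56.5 ± 2.48 CPM.

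The ID proteins, which block basic helix-loop-helix factors downstream of BMP signalling, fell together, ID2 from 236.4, 253.9 and 239.9 CPM to 44.8, 43.8 and 39.7 CPM, ID1 by 2.33 ± 0.09 and ID3 by 1.77 ± 0.06. Of 6 tested genes for EGF receptor ligands and feedback, 5 were called lower and none higher, with a median of -1.10. TGFA, EREG and AREG, all EGF receptor ligands, were 3.11-fold, 3.04-fold and 2.38-fold lower. The YAP and SRF targets CCN1 and CCN2 had log2 changes of -0.63 and -0.70, among 5 of 10 lower and 2 higher (4 and 4 with library totals only), and TAGLN, an actin-binding protein below the level filter, of -2.84 ± 0.24. Of the p53 targets and GADD45 genes, 7 of 16 were higher and 5 lower (7 and 3 with library totals only), near the 37.1% and 35.8% of all genes. MDM2, the ubiquitin ligase of p53, was 2.07-fold lower, and XPC and GADD45B, of DNA repair and stress signalling, rose by 1.47 and 0.78. NF-kB feedback genes rose, 7 of 8, TNFAIP3 by 2.14 and NFKB2 by 1.98, with RELB lower at -0.56.

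Ribosomal protein mRNAs fell as a block. Of 75 tested, 71 were called lower and none higher, with a median of -0.66, where 35.8% of all genes were lower. They summed to 136914, 144581 and 134202 CPM in the control and 89379, 91694 and 91146 CPM in the arsenite libraries. The falls were moderate, as for RPS29, from 990.5 ± 39.8 to 493.8 ± 25.5 CPM, and 4 genes were not called, RPL3 (0.01), RPS9 (-0.15), RPL4 (-0.18) and RPL5 (-0.23). With library totals only 65 were called lower and the median was -0.50. Translation factors moved in both directions. Of 17 tested, 4 were called higher (23.5%) and 5 lower (29.4%), both under the shares of all genes. With library totals only these were 7 and 5. EEF2, the elongation factor for translocation, rose from 2034 ± 66.1 to 4634 ± 134 CPM, while TPT1 and PABPC1 fell by 0.72 and 0.56 and EEF1A1 was not called, at 0.01. Genes of ribosome biogenesis were mostly higher, 13 of 18, with NOP58 at 1.95 and NCL at 1.5.

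Mitochondrial transcripts fell. All 13 protein-coding genes of the mitochondrial genome were called lower, with a median of -0.93, from -0.80 for MT-ND4 to -2.11 for MT-ND6, the one of these on the light strand. Their sum went from 231577, 248352 and 188465 CPM to 121599, 124468 and 108087 CPM. The mitochondrial ribosomal RNA MT-RNR1 fell from 16270, 17690 and 11860 CPM to 1390, 1490 and 1296 CPM. Mitochondrial genes took 23.1% to 27.9% of the counts of control and 11.99% to 13.5% of those of arsenite libraries. Without these genes in totals and scaling, 6620 of 9086 genes were called. Nuclear genes of oxidative phosphorylation went the same way, 55 of 75 lower (73.3%, against 35.8% of all genes) and 11 higher. Their median was -0.50. NDUFS1, the largest subunit of complex I, was an exception and rose by 1.11 ± 0.07. Mitochondrial ribosomal proteins were called lower in 34 of 73 (46.6%) and higher in 10 (13.7%), with a median of -0.24. With library totals only these were 23 and 16.

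Across all genes, the change followed the length of the coding sequence. The MANE Select transcript gave a coding length for 9059 tested genes (99.6%). Genes were put in 5 bins of equal size by this length. In the bin with the shortest coding sequence, 78 to 747 bases, 4.6% were called higher and 74.4% lower, with a median log2 change of -0.55. In the bin with the longest, 2520 to 23457 bases, 65.5% were higher and 12.4% lower, with a median of 0.57. The bins between had medians of -0.17, 0.06 and 0.38. Genes called higher had a median coding length of 2050.5 bases and 14 exons, and those called lower 882 bases and 6 exons. Spearman's rho between change and coding length was 0.541 across genes, 0.504 for exon number, -0.124 for the length of the 3′ UTR and -0.018 for GC content. Genes are not independent replicates, and coding length goes with exon number and with expression level. Within 3 bins of control level, rho for coding length was 0.449, 0.49 and 0.498, and without ribosomal, mitochondrial ribosomal and oxidative phosphorylation genes it was 0.529. Within 5 bins of exon number it fell from 0.442 in genes with the fewest exons to 0.075 in those with the most.

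The gene groups stood at different distances from this trend. Ribosomal proteins had a median coding length of 459 bases and oxidative phosphorylation genes 426 bases, and their medians of -0.66 and -0.50 lay near that of the shortest bin. Synthetases (2077.5 bases), mitosis genes (1995) and HSP70 genes (1990.5) had medians of 1.13, 1.48 and 1.90, above the 0.38 of the bin that holds these lengths. AP-1 genes, with 1006.5 bases, had a median of 3.5 in a bin whose median was -0.17. The 18 genes more than 8-fold higher had a median of 3.5 exons. The 5 bins in WT cells had medians of -0.54, -0.18, 0.05, 0.36 and 0.56. The part of coding length in the changes of single lists was not tested.

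**Figure D3:**
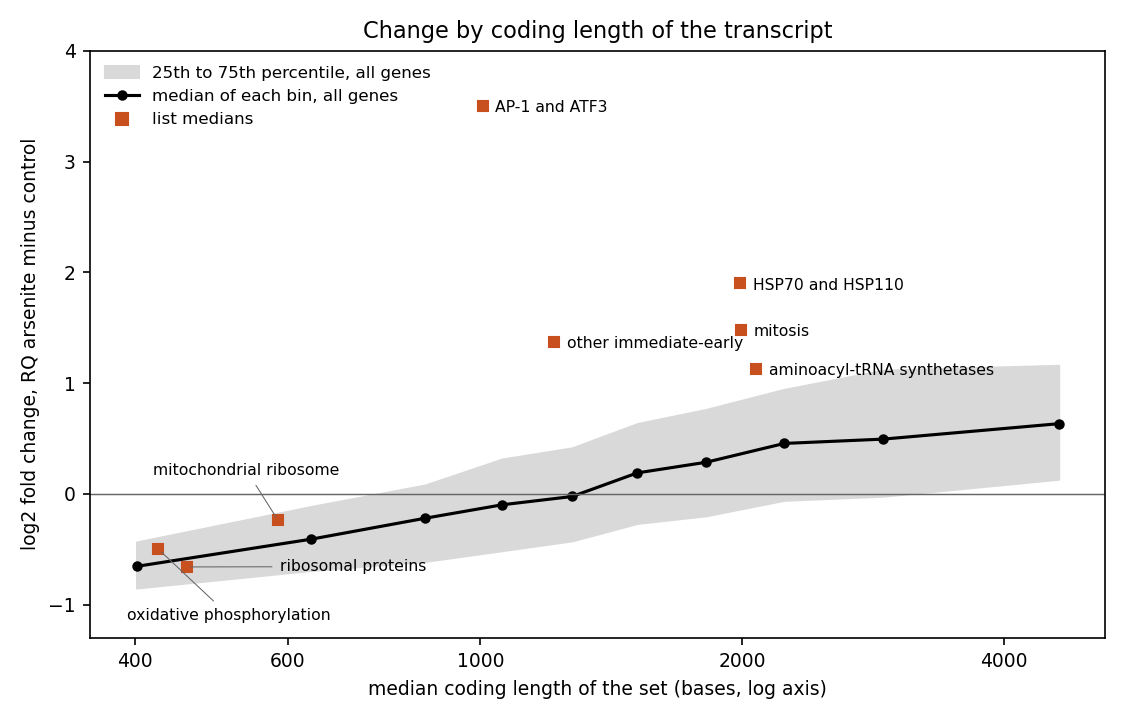
Median log2 fold change of RQ arsenite minus control in 10 bins of genes ordered by coding length (black, bases on a log axis), with the 25th to 75th percentile in grey and medians of 8 gene lists as orange squares. The medians of the bins rise from -0.66 to 0.63, ribosomal proteins lie on the trend and the AP-1 genes far above it.

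Of 20 mitosis genes, 17 were called higher (85.0%, against 37.1% of all genes) and none lower, with a median of 1.48. TTK, a spindle checkpoint kinase, went from 13.6, 9.63 and 12.2 CPM to 73.9, 79.5 and 74.1 CPM, and TOP2A, the topoisomerase of mitotic chromosomes, from 34.2 ± 0.242 to 178 ± 3.92 CPM. The small genes BIRC5, PTTG1 and UBE2C were not called. Of 20 replication genes, 10 were called higher and 7 lower, and with library totals only 10 and 4. The MCM helicase subunits rose, MCM2 by 1.89 ± 0.11, as did RRM1 by 2.23, and CCNE1, cyclin E, fell by 0.87. Tubulins rose in 7 of 8, TUBB2A most at 1.87, and 4 of 5 tested clustered histone genes were higher and 1 lower. Of 159 numbered zinc finger genes, 63 were higher and 43 lower, near the shares of all genes, with a median of -0.04, and with library totals only 70 and 27, with a median of 0.13. Of 13 hypoxia and glycolysis genes 8 were higher and 3 lower (median 0.54; 10 and 1 with library totals only), of 5 Wnt feedback genes 0 and 2 (-0.24), and none of 3 tested genes of TXNIP and the alpha-arrestins was called.

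Of 17 genes for stress granule proteins, 15 were called higher (88.2%, against 37.1% of all genes) and none lower, with a median of 1.09. Their median coding length was 1989 bases, in a bin where 55.2% of genes were higher. ATXN2 went from 17.6, 18.5 and 18.5 CPM to 62.2, 61.2 and 63.1 CPM. G3BP1, whose protein nucleates the granules, went from 96.8, 87.1 and 86.4 CPM to 199.8, 202 and 197.3 CPM. Neither overlapped between groups, and TIAL1 and FMR1 were not called. Writers, erasers and readers of N6-methyladenosine, a mark that IGF2BP proteins are reported to read, rose in 10 of 13, RBM15 by 2.22 ± 0.08, YTHDC1 by 2.13 ± 0.08 and METTL3 by 1.04 ± 0.08. The demethylase ALKBH5 was lower (-0.38), a call lost with library totals only (-0.21). Other regulators of RNA followed in part. Of 12 SR splicing factors, 9 were higher and 2 lower (median 0.47; 9 and 1 with library totals only), of 8 decay regulators of the ZFP36, BTG and TOB families 6 and 1 (0.68), and of 10 genes of P-TEFb, its 7SK complex and BRD proteins 6 and 0 (0.43). HEXIM1, an inhibitor of the elongation kinase P-TEFb, rose from 115.9 ± 4.46 to 386.6 ± 9.44 CPM.

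RNAs that the study named as IGF2BP targets or ligands moved apart in RQ cells. Of 10 such genes beside the IGF2BP family, GARS1 (1.33), XBP1 (1.00), ACTB (0.40) and EIF2A (0.36) were called higher. MYC (-1.03), HMGA2 (-1.01), CCDC127 (-0.69) and PABPC1 (-0.56) were lower, and PHC3 and LIPA were not called. HMGA2, a chromatin protein of embryonic cells, went from 450.7, 504.9 and 438.7 CPM to 225.4, 233.1 and 235.7 CPM. The study chose some of these genes on the same samples, so their directions are not independent evidence.

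Genes that are not protein coding were rarely higher. In a fit of 13632 genes of all types, 4335 were called higher (31.8%) and 4215 lower (30.9%). With library totals only these were 5766 and 2608, and the median of all types moved from -0.03 to 0.23. With TMM scaling, of the 1610 that are not protein coding, 106 were higher (6.58%) and 560 lower (34.8%). Of 1309 long noncoding RNAs, 76 were higher (5.81%) and 456 lower (34.8%). These noncoding splits were not counted with library totals only. Among 20 abundant long noncoding RNAs and snoRNA hosts, 3 were higher and 13 lower, with a median of -0.56. NORAD, a cytoplasmic RNA that binds PUMILIO proteins, went from 336.9, 324.7 and 360.1 CPM to 106, 97.2 and 104.5 CPM. NEAT1, the scaffold of paraspeckles, had a log2 change of -1.29 ± 0.09 and MIR17HG, a microRNA host, of -3.19 ± 0.40. MALAT1, a nuclear RNA, went the other way, from 186.5, 150.1 and 161.1 CPM to 460.3, 503.4 and 421.5 CPM.

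The largest noncoding falls were mostly of small nucleolar RNAs, which guide ribosomal RNA modification and lie in introns of host genes. None of 31 tested was called higher and 23 were called lower, with a median of -2.09. SNORA73A had 124, 114 and 160 counts in control and 6, 8 and 7 in arsenite libraries. SNORD48 had 151, 195 and 139 counts against 8, 19 and 13. These RNAs have no poly(A) tail, so their counts are a remainder after selection. SNORD87, SNORA24, SNORD35B, MT-TM, a mitochondrial tRNA, and the long noncoding RNAs LINC00707 and YWHAH-AS1 completed the 8 largest falls, at -5.16, -4.59, -3.93, -4.04, -5.13 and -3.57. The 8 largest rises were CHMP4BP1, LINC02757, MIR1292, HSD17B7P2, HNRNPCP1, IDI2-AS1, SCARNA17 and KCNQ1OT1. None of them passed 3 CPM in any group mean, and the pseudogenes CHMP4BP1 and HNRNPCP1 may take reads of their parent genes. KCNQ1OT1, an imprinted RNA, went from 13, 6 and 19 counts to 67, 83 and 76.

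Some coding genes below the level filter changed by larger folds than those above it, and are named after their values were seen. FGF1, a fibroblast growth factor, had 76, 90 and 96 counts in control and 0 in the 3 arsenite libraries, at least 91.2-fold lower against a floor of 3 counts over the group. VGLL3, a cofactor of TEAD factors, also had 0 counts in arsenite, at least 24.4-fold lower. LTA and RFPL4A had 0 counts in control and were at least 28.7-fold and 33.2-fold higher. These bounds cover counting error only.

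The RQ response was compared with that of WT cells by testing the difference of both arsenite effects. Of 9099 genes, 20 were called (0.22%), and in all 20 the arsenite effect was higher in RQ, while 333 had an unadjusted p under 0.05. Among the called genes SESN2 had the largest difference, 1.49 ± 0.16 on the log2 scale (edgeR's adjusted p, 1.14e-05), with rises of 3.59 in RQ and 2.10 in WT. DDIT4 followed at 1.36 ± 0.14, with 3.87 and 2.51. Both stayed called in 24 of 24 alternative fits. ITPRIP, which modulates the IP3 receptor (0.90 ± 0.13), STC2, a stanniocalcin (0.88 ± 0.11), GEM, a small GTPase (0.87 ± 0.15), and TRIB3 (0.83 ± 0.17) came next. STC2 was not called in RQ (0.11) and fell by 0.77 in WT. Such a difference can lie in the control or in the arsenite level. Mean levels of EGR1, also called, were 77.5 CPM in RQ and 112.6 in WT control, and 2501 and 2388 in arsenite. GEM was at 15.2 and 23.3 CPM in control, and 31.1 and 26.1 in arsenite. SESN2 was at 11.7 and 14.4 CPM in control, and 141.3 and 61.8 in arsenite. TRIB3 lost the call in 13 of the 24 fits, 9 of which left out 1 library, and its RQ arsenite libraries spread from 150.5 through 179.4 to 253.7 CPM. With library totals only the number of called genes was 12, and in a fit of only RQ and WT libraries with the replicate number as a block it was 34, of which 31 were higher and 3 lower in RQ. It was 8 without RQ arsenite replicate 3, 9 without WT arsenite replicate 2, 10 without RQ control replicate 2, 12 without WT control replicate 1 or WT arsenite replicate 1, and 13 without RQ control replicate 1 or RQ arsenite replicate 2. Without Y396E arsenite replicate 3, a library of neither genotype that bears on the estimate of the spread, it was 38, with 32 higher and 6 lower in RQ. IGF2BP1 itself, at 1.71 in RQ and 1.27 in WT, differed by 0.44 ± 0.14 and was not called (adjusted p of 0.562). CHAC1, below the level filter and so outside this test, had log2 changes of 4.90 in RQ and 3.10 in WT.

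**Figure D4:**
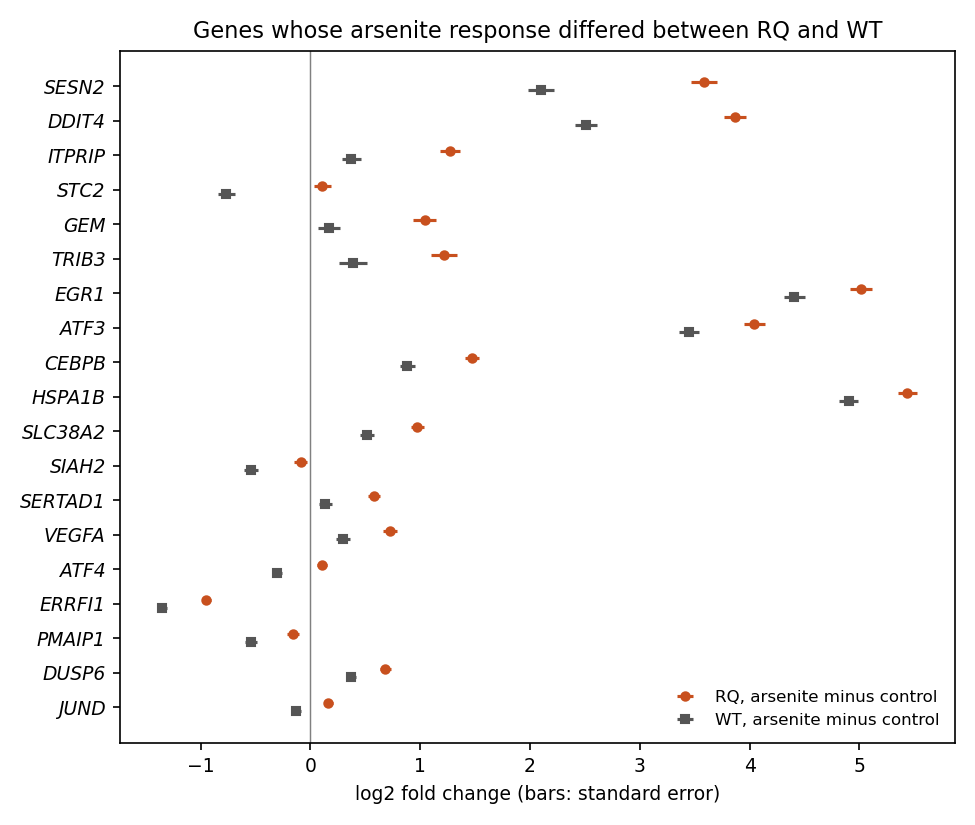
Log2 fold change of arsenite minus control in RQ cells (orange circles) and WT cells (grey squares) for 19 of the genes whose responses differed, ordered by the difference; bars are standard errors. In each gene the RQ value lies to the right of the WT value, by 1.49 for SESN2 and 0.30 for JUND.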

How the data were processed

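Whole-number counts per gene, not normalized, were deposited for each library. Per the labels and file headers, the authors aligned reads to hg38 with STAR 2.7.11b and counted them by strand with featureCounts 2.0.6 on GENCODE release 46, and symbols and types came from release 44 (99.14% of identifiers matched). The immunoprecipitation and parental libraries were not analysed here.

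The 24 mCherry-IGF2BP1 libraries were fitted in 1 model, for protein-coding genes over 10 CPM in 12 or more of them, with a mean for each of 8 groups, TMM scaling and the quasi-likelihood test of edgeR 4.0.16 in R 4.3.3, adjusted over all tested genes. The test and thresholds follow the study, but the filter used CPM before TMM scaling, whereas the study scaled first, so the tested set may differ. The fit of all gene types took CPM over 1 in 3 libraries. The SE of a log2 change is its absolute value over the square root of the test's F. It rests on the shared spread of the fit. The fit of protein-coding genes was tested on simulated counts, and the fit of all gene types was not. In that simulation few genes changed, evenly up and down, with a common spread. It therefore does not cover a response in which 72.9% of genes were called. Y396E arsenite replicate 3, with 13897 genes detected, entered through the shared spread.

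Each library counted as 1 replicate. Same-numbered RQ control and arsenite libraries did not deviate together (r of 0.042, 0.023 and 0.043). Same-numbered RQ and WT libraries did (0.291, 0.525 and 0.472 in control, 0.148, 0.147 and 0.15 in arsenite), so the numbers pair RQ with WT, and a block within each treatment gave 24 called response differences against 20.

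Named were the 15 largest rises and falls with separated libraries, leading or exceptional members of 44 gene lists, the IGF2BP genes, the 6 largest response differences from WT, and the 8 largest noncoding rises and falls, some of which are not reported here. The members and lists were chosen with earlier results of these data known. Alternatives were DESeq2 1.42.0, other scalings, filters and thresholds, fewer groups, the block and leaving out libraries. Promoters are RefSeq's on GRCh38.p14, and transcript lengths GENCODE's.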

Additional observations from a re-analysis of the deposited data

Results flagged for a closer look

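The arsenite response differed between RQ and WT cells for 20 genes, each higher in RQ, by a test of the difference itself in edgeR. On the log2 scale the differences of 19 of them, RQ minus WT, were 1.49 for SESN2, 1.36 for DDIT4, 0.90 for ITPRIP, 0.88 for STC2, 0.87 for GEM, 0.83 for TRIB3, 0.61 for EGR1, 0.59 for ATF3 and 0.59 for CEBPB. They were 0.53 for HSPA1B, 0.46 for SLC38A2, 0.45 for SIAH2, 0.44 for SERTAD1, 0.43 for VEGFA, 0.41 for ATF4, 0.40 for ERRFI1, 0.39 for PMAIP1, 0.31 for DUSP6 and 0.30 for JUND. In RQ cells ATF4 changed by 0.10 and in WT cells by -0.30, and ERRFI1, a feedback inhibitor of the EGF receptor, by -0.95 and -1.35. SESN2 and DDIT4 stayed called in all 24 alternative fits. ITPRIP, STC2, GEM, CEBPB, ATF4 and ERRFI1 lost the call in 1 of the 24, the fit with a fold threshold of 2. The other calls were less stable. VEGFA, DUSP6 and JUND lost the call in 15 of the 24, ATF3 and HSPA1B in 14, TRIB3 in 13, PMAIP1 in 9, EGR1 in 8, SLC38A2 in 6, SERTAD1 in 5 and SIAH2 in 4. VEGFA was not called with the replicate block, which shares the replicate number across both treatments. It stayed called with the block within each treatment, which pairs RQ with WT libraries.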

How the results depend on the processing

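The count of 6631 called genes in RQ cells stayed between 6516 and 6691 with other scalings, DESeq2, fewer groups, the replicate block (6636) and without single libraries, and was 7472 with no fold threshold, 8011 with no filter and 1572 with a fold change above 2. Without single RQ libraries it was 6516 to 6617. The count of 20 response differences from WT was 12 with library totals only, 31 with DESeq2, 22 with the replicate block, 34 with the replicate block and only the groups compared, 2 with a fold change above 2, and 38 without Y396E arsenite replicate 3, an alternative added after the data were seen. Leaving out single RQ or WT libraries gave 8 to 20, lowest without RQ arsenite replicate 3. Genes of the ER called lower were 9, and 5 with library totals only. For 495 leading or listed genes and 11 alternatives, 34 lost a call in at least 1 and none reversed. The replicate block changed no other count by over 1.5 times, and VEGFA lost its call under it. Depth limits the noncoding and low-level genes, where libraries held few counts, and counts cannot tell a change in synthesis from one in decay.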
